A study of Rattus norvegicus with 2 samples.

Results

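A set of 10 genes that encode scaffold proteins of the muscle Z-disc and of sarcomere-like structures was described in the basilar artery of the rat. They were Ldb3, Pdlim3, Pdlim5, Pdlim7, Nexn, Flnc, Xirp1, Fhod3, Myom1 and Synm. The genes were chosen from earlier results of these same arrays, so their difference between the arrays is a description and supports nothing by itself. Of the 10 genes, 9 had a named probe set among 15037 named genes, each with 1 probe set. Xirp1 was not among the named probe sets and is without a value here.

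Expression was read from 2 Clariom S rat arrays, on which a gene is represented by a set of short oligonucleotide probes. The Ligation array held pooled RNA of 4 male Sprague-Dawley rats, 13 months old by the labels, taken 4 weeks after ligation of both common carotid arteries. The Sham array held pooled RNA of 4 male rats of the same strain and age, in which these arteries were exposed and not ligated. The basilar artery, which carries more of the blood to the brain after this ligation, was collected whole after perfusion, and each array was made from 50 ng of RNA. Since each group has a single array and no replicate, no value below carries an SD or a p-value, and a difference lies between 2 pools and not between animals.

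In striated muscle the Z-disc anchors the barbed ends of actin filaments through α-actinin, and PDZ-LIM proteins, filamin C, nexilin and Xin bind to this lattice. The M-band holds the myosin filaments at the middle of the sarcomere. Smooth muscle has no sarcomeres, and its actin filaments are anchored in dense bodies and dense plaques, which share α-actinin and several scaffold proteins with the Z-disc. Many genes of these structures are known targets of serum response factor, which binds a DNA element called the CArG box, and of its coactivator myocardin.

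Promoters are shown first, since the CArG box is the best known element of muscle scaffold genes. RefSeq windows of 300 bases, from 250 before to 50 after the transcription start on assembly GRCr8, were given for 9 of the 10 genes, with 12 start sites in all. Pdlim3 had no window. An exact CArG box was present in 1 gene, Ldb3, at 52 to 43 bases before the start. Nexn and Synm each held a box that differs from the element at 1 position. In the windows below, written 5′ to 3′ on the strand of the gene, capitals mark these boxes.
Ldb3, chr16:9924630-9924929, minus strand: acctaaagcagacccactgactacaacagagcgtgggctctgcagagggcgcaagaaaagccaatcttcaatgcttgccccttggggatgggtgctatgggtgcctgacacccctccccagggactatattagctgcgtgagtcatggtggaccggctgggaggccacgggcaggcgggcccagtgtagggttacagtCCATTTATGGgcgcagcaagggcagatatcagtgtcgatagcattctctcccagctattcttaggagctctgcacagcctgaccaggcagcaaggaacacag
Nexn, chr2:243878103-243878402, minus strand: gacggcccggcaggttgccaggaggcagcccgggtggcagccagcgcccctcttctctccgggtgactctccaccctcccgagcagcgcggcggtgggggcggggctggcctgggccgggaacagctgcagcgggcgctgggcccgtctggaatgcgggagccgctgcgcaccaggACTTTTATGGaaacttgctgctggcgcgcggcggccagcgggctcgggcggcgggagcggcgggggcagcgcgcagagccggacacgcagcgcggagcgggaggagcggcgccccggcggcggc
Synm, chr1:130773775-130774074, minus strand: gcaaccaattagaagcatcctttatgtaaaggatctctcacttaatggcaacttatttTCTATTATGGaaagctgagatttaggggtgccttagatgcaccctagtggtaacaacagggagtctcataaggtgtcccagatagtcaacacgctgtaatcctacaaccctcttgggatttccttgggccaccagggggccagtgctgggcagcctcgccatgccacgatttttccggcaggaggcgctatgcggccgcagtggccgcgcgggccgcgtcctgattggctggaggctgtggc

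The box in Nexn lay 74 to 65 bases before the start and the box in Synm 192 to 183 bases before it. Of 33469 rat promoter windows of the same length, 1.64% held an exact CArG box and 20.1% held a box that differs at 1 position, on either strand. A box that differs at 1 position is therefore frequent among promoters of any gene. The windows of Fhod3, Myom1, Pdlim5, Pdlim7, Flnc and Xirp1 held neither form. A MEF2 box, bound by another muscle transcription factor, was found in 2 of the 3 windows of Xirp1, which overlap and hold the same site, and in no window of the other genes. MEF2 boxes were present in 3.29% of all windows. The letters CATTCC, the core bound by TEAD factors, were found on either strand in Fhod3, Nexn and Flnc, and in 14.2% of all windows. TATAAA was found in none of the windows of these genes and in 14.2% of all windows. These matches are descriptions of the letters and do not show binding.

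The promoters also differed in base composition. Fhod3, Pdlim5, Pdlim7, Nexn and Flnc had 26 to 39 CG dinucleotides per window, above the upper quartile of 19 over all windows. Ldb3 had 8 and Synm had 12, while Myom1 had 2 and Xirp1 had 1 to 3, at or below the lower quartile of 3. Genes that were lower in the Ligation array thus had promoters of either kind, as Nexn had 39 CG dinucleotides and Myom1 had 2.

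As a group, the scaffold genes were lower in the Ligation array. Of the 9 genes with a value, 7 were under 0.5-fold, 1 was lower by less and 1 was higher, and the median of their log2 differences was -1.85. With Fhod3, whose Ligation signal was within background, at its bound, 6 were under 0.5-fold and the median was -1.71. Over all named genes the median difference was -0.01, with 2.97% under 0.5-fold and 4.04% over 2-fold. Over all 23188 gene probe sets, named or not, 2.95% were under 0.5-fold. Since the genes were chosen on this contrast, nothing is read from the distance to these shares. Of all named genes past either threshold, 57.6% were higher in the Ligation array, against 41.0% when the arrays were centred on housekeeping genes, whose median difference was 0.12. That centring moved the median of all named genes to -0.13. With other thresholds, 7 of the 9 genes were lower by over 1.5-fold, against 10.8% of named genes, and 6 were lower by over 3-fold, or 5 with Fhod3 at its bound, against 0.605%.

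**Figure D1:**
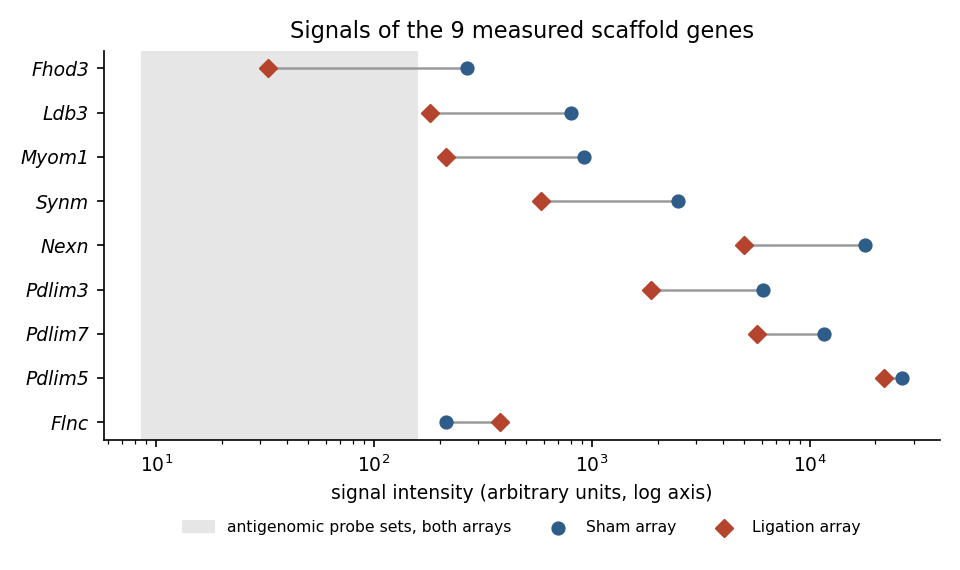
Signal intensity of each measured scaffold gene on the Sham array (circles) and the Ligation array (diamonds), on a log axis, with 1 array per group and no error bars. The grey band spans the antigenomic probe sets, from 8.58 to 157. Fhod3 is the single gene with a signal inside the band (32.5 in the Ligation array), and Flnc is the single gene with the diamond to the right of the circle.

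Each signal was set against 23 antigenomic probe sets, which match no rat transcript and give the level of non-specific signal. This level spanned 8.58 to 157 on the Ligation array, and 9.14 to 151 on the Sham array. A signal no higher than the brightest of them is called within background. All 9 genes were above background in the Sham array, and 8 were above it in the Ligation array, as the plot of signals by gene shows. Of all named genes, 7751 were above background on at least 1 array. Of these, 3.5% were under 0.5-fold and 6.19% were over 2-fold.

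The PDZ-LIM genes differed among themselves. Ldb3 encodes a protein, also called ZASP or Cypher, that binds α-actinin and keeps the Z-disc intact under load. Its signal was 181 after ligation and 801 after sham surgery, 4.42-fold lower. The Ligation signal was 1.16 times the brightest background probe set, so it was just above what the array can separate from non-specific signal. Pdlim3, which encodes the actinin-associated LIM protein, had 1872 after ligation and 6126 after sham surgery, a log2 difference of -1.71. Pdlim7, which encodes Enigma, had 5720.3 and 11616.5, a ratio of 0.492 that lies just inside the threshold of 0.5-fold. Pdlim5, which encodes the Enigma homolog ENH, had 21942 after ligation and 26409 after sham surgery. Its ratio of 0.831 was the closest to 1 among the 9 genes.

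The other measured genes of this family lay near 0 or above it. Pdlim1, which encodes CLP36 of stress fibers, had a signal of 34593 after ligation and 37082 after sham surgery. Pdlim2 had 479 and 480, and Pdlim4 had 362 and 273, with log2 differences of 0.00 and 0.41. Of the 7 measured PDZ-LIM genes, Ldb3, Pdlim3 and Pdlim7 were thus under 0.5-fold and the other 4 were between the thresholds. All 7 were above background on both arrays.

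Among the genes of actin-binding scaffold proteins, Nexn and Flnc differed in opposite directions. Nexn encodes nexilin, an actin filament-binding protein of the Z-disc. Its signal was 4971 after ligation and 17937 after sham surgery, 3.61-fold lower. Flnc encodes filamin C, the muscle member of the filamin actin cross-linkers. It had 379 after ligation and 215 after sham surgery, a ratio of 1.77 that does not reach 2-fold. Both signals of Flnc were above background, at 2.42 and 1.42 times the brightest antigenomic probe set.

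The paralog Flna, which encodes filamin A and is the filamin of most cell types, had 136235 after ligation and 399662 after sham surgery. It was 2.93-fold lower, so the 2 measured filamin genes differed in opposite directions. The log2 difference of Flnc, 0.82, lay within the range of the 13 housekeeping genes, -0.50 to 0.83. Neither filamin gene changed sign under any scaling tried. Apart from centring on smooth muscle markers, these gave Flnc 0.67 to 0.82, so this is no measure of how firm the directions are. Relative to smooth muscle markers, described below, Flnc was higher by 1.72 on the log2 scale. Xirp2, the paralog of Xirp1, had 16.2 after ligation and 25.2 after sham surgery, both within background.

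Fhod3 was lower in the Ligation array by an amount that the arrays could only bound. It encodes a formin that assembles actin filaments and is needed for sarcomere organization in cardiac muscle of the mouse. Its signal was 32.5 after ligation and 266 after sham surgery, a measured ratio of 0.122. The Ligation signal was within background, so its fold is only a bound. Set against the brightest background probe set of the Ligation array, Fhod3 was at least 1.70-fold lower. It is therefore given no place among the other genes. Of 12 formins outside the FHOD group, 4 had a named probe set and none passed a threshold, with Diaph1, which elongates actin filaments, at 696 after ligation and 821 after sham surgery.

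Myom1 encodes myomesin, which cross-links myosin filaments and titin in the M-band. It had a signal of 213 after ligation and 918 after sham surgery, 4.31-fold lower. The Ligation signal was 1.36 times the brightest background probe set. The paralog Myom2, which encodes the M-protein, was within background on both arrays, with 23.7 and 32.5. In the Sham array Myom1 was thus read well above background, at 6.08 times its brightest probe set, in an artery that has no sarcomeres.

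Synm encodes synemin, an intermediate filament protein that joins desmin filaments to α-actinin, vinculin and the dystrophin complex. Its signal was 581 after ligation and 2478 after sham surgery, 4.27-fold lower. The Ligation signal was 3.70 times the brightest background probe set. The differences of Ldb3, Myom1 and Synm, of -2.14, -2.11 and -2.09, lay in places 16, 19 and 20 from the lowest of all named genes and cannot be put in order without replicates. Nexn stood in place 41, Pdlim3 in place 64, Pdlim7 in place 415 and Pdlim5 in place 4298. Flnc stood in place 1006 from the highest.

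**Figure D2:**
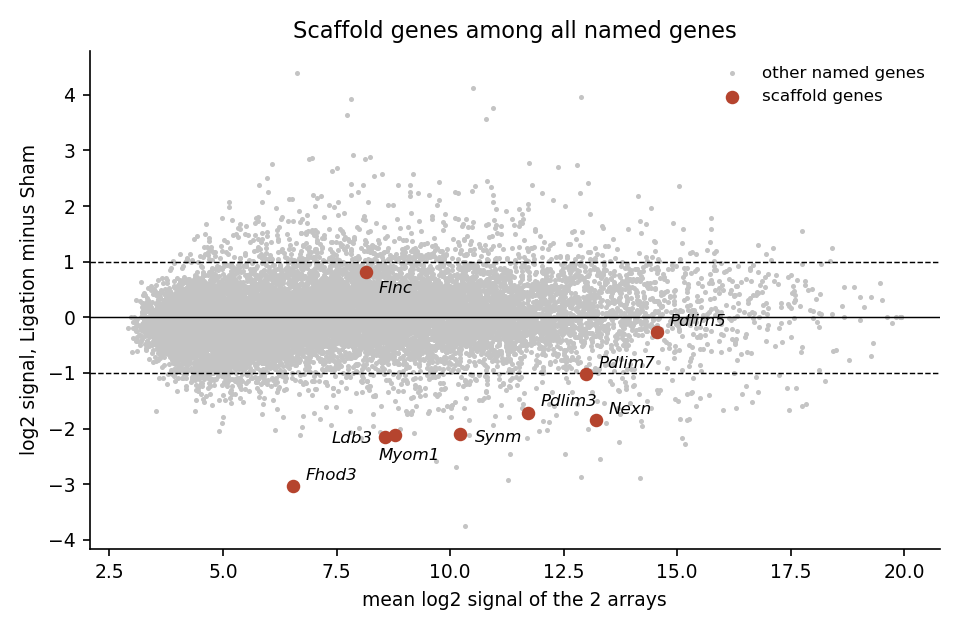
Log2 difference (Ligation minus Sham) against the mean log2 signal of the 2 arrays for each named gene, with the scaffold genes in red and dashed lines at 2-fold and 0.5-fold. Ldb3, Myom1, Synm, Nexn and Pdlim3 lie at the lower edge of the cloud, between -2.14 and -1.71, Fhod3 is drawn at its measured -3.03 although its Ligation signal is within background, Pdlim7 lies on the dashed line at -1.02, and Pdlim5 and Flnc lie inside the cloud.

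Partners of synemin were lower in part. Of 9 named genes of intermediate filaments and their membrane linkers, 2 lay under 0.5-fold and no gene over 2-fold. Within background on both arrays were 4 of the 9. Dmd, which encodes dystrophin, had 16081 after ligation and 39907 after sham surgery, a log2 difference of -1.31. Des, which encodes desmin, had 107353 and 221566, a difference of -1.05. Synm was lower than either, at -2.09. Vim, which encodes vimentin, was near the highest signal of both arrays, so its fold was not measured.

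The α-actinins, to which the PDZ-LIM proteins bind, were lower where they were measured. Actn1, the form of stress fibers and smooth muscle dense bodies, had 28276 after ligation and 77178 after sham surgery, 2.73-fold lower. Actn4 had a ratio of 0.517, just outside the threshold. Actn2 and Actn3, the α-actinins of striated muscle Z-discs, were within background on both arrays.

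Other Z-disc and M-band genes were detected in part. Of 23 with a named probe set, 12 were within background on both arrays, near the share of all named genes, 7286 of 15037. Among the 12 were the striated muscle genes Myot, Tcap, Csrp3, Nrap and Myoz1. Of the 11 above background, 3 were under 0.5-fold, none was over 2-fold, and the median difference was -0.15. Csrp2, a LIM protein of vascular smooth muscle, had 402 after ligation and 1317 after sham surgery, a difference of -1.71. Synpo2, which encodes the actin-bundling myopodin, and Csrp1, which encodes another LIM protein of actin bundles, had differences of -1.35 and -1.15.

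Scaffold genes of smooth muscle dense plaques and actin bundles were lower as well. Of 13 with a named probe set, all were above background on both arrays, 5 were under 0.5-fold and 1 was over 2-fold. Their median difference was -0.95, and -0.05 relative to the median of the smooth muscle markers described below. Several lay just short of 0.5-fold, and 9 passed it after quantile normalization. Smtn, which encodes smoothelin of contractile smooth muscle, was 4.83-fold lower, and Lmod1, which encodes the actin nucleator leiomodin, was 3.16-fold lower. Lima1, which encodes the actin-bundling LIM protein EPLIN, was 2.44-fold higher, with 1011 after ligation and 414 after sham surgery. Over all 84 related genes of these lists, 59 had a named probe set, 14 were under 0.5-fold and 1 was over 2-fold, and their median difference was -0.24. Of these, 21 were within background on both arrays, and the 38 above it had 12 genes under 0.5-fold and a median of -0.66. These lists were written with earlier results of the arrays known and are not independent of them. Smtn and Des are also among the smooth muscle markers described below, and Actn2 is among those of cardiac or skeletal muscle.

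**Figure D3:**
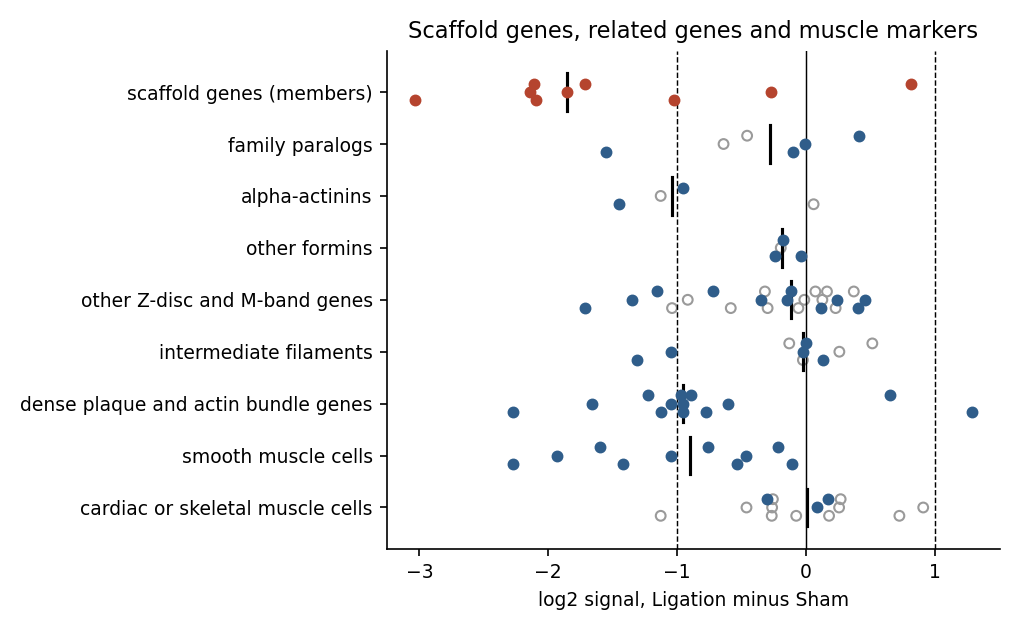
Log2 difference (Ligation minus Sham) of each gene of the scaffold group (red), of 6 lists of related genes and of 2 lists of muscle markers (blue). Open circles are genes within background on both arrays, bars are list medians over all points, and dashed lines mark 2-fold and 0.5-fold. Smtn, Des and Actn2 are drawn both in a related list and in a marker list. The scaffold genes have a median of -1.85, dense plaque and actin bundle genes of -0.95, and the cardiac or skeletal muscle markers, mostly open circles, of 0.01.

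Markers of the cell types in the artery were checked beside these values. All 10 smooth muscle markers were above background on both arrays and all were lower in the Ligation array, with a median difference of -0.90 and a summed signal of 2236990 against 3278640. The brightest, Tagln and Acta2, had differences of -0.10 and -0.46. Their Sham signals of 895395 and 763073 lay toward the highest signal of that array, 998298, where differences can be compressed. Of 14 cardiac or skeletal muscle markers, 11 were within background on both arrays, and the 3 above it, Myl2, Tnnt2 and Acta1, had differences of -0.30, 0.17 and 0.09, the last of which turned to -0.03 with housekeeping centring. In a whole artery, a smaller share of smooth muscle RNA in the pool and less RNA of these genes per cell cannot be told apart. Their part in the values of the scaffold genes was not tested.

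Markers of other cells were higher in the same array. All 9 endothelial markers were above 0, with a median of 0.97, as were all 10 of macrophages and microglia (0.92), all 8 of fibroblasts and leptomeninges (0.59), all 7 of astrocytes (1.42) and all 7 of oligodendrocytes and Schwann cells (2.0). Under other scalings of the arrays 1 or 2 of the fibroblast markers, Foxc1 and Pdgfra, were below 0, and none of the other 4 lists had a marker below 0. Within background on both arrays were 1 marker of macrophages and microglia, 1 of astrocytes, 2 of oligodendrocytes and Schwann cells and 3 of neurons. In the Sham array 3 oligodendrocyte and Schwann markers were within it. With signals raised to the brightest background, the median of the oligodendrocyte and Schwann list was 1.14. Of the brightest markers, Cdh5 and Cldn5 of endothelium had differences of 0.57 and 1.73, C1qb and Csf1r of macrophages 0.90 and 0.94, and Dcn and Col1a2 of fibroblasts 0.36 and 0.65. Gja1 and Gfap of astrocytes had 0.31 and 3.96, and Pmp22 and Cnp of myelinating cells had 1.15 and 1.14. Pericyte markers lay on either side of 0, from -1.46 to 1.61, with Pdgfrb at 0.32 and Rgs5 at 1.61. Neuron markers had a median of 0.00, with Syt1 at 0.40 and Snap25 at 0.00, the latter below 0 under other scalings. Actb, often used as a control gene, was at the ceiling of both arrays, and Gapdh had a difference of 0.54.

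Set against the median of the smooth muscle markers, the scaffold genes kept different distances. That median includes Tagln and Acta2, whose differences can be compressed near the highest signal, so distances below it may be too large. On the log2 scale, Ldb3 had a value of -1.24 relative to that median, Myom1 of -1.20 and Synm of -1.19. Nexn and Pdlim3 had -0.95 and -0.81, and Pdlim7, at -0.12, was near the median of the markers. Pdlim5 was above it by 0.64. With Fhod3 at its bound, which lies above that median, 6 of the 9 genes lay below the smooth muscle median and 5 lay below Myh11, the smooth muscle myosin heavy chain, which had a difference of -1.60. Smtn and Myocd, the gene of myocardin, were the markers with the lowest values, at -2.27 and -1.93. With Fhod3 at its bound none of the scaffold genes lay below each of the 10 markers. Fhod3 may lie lower than its bound, so these counts could be higher.

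**Figure D4:**
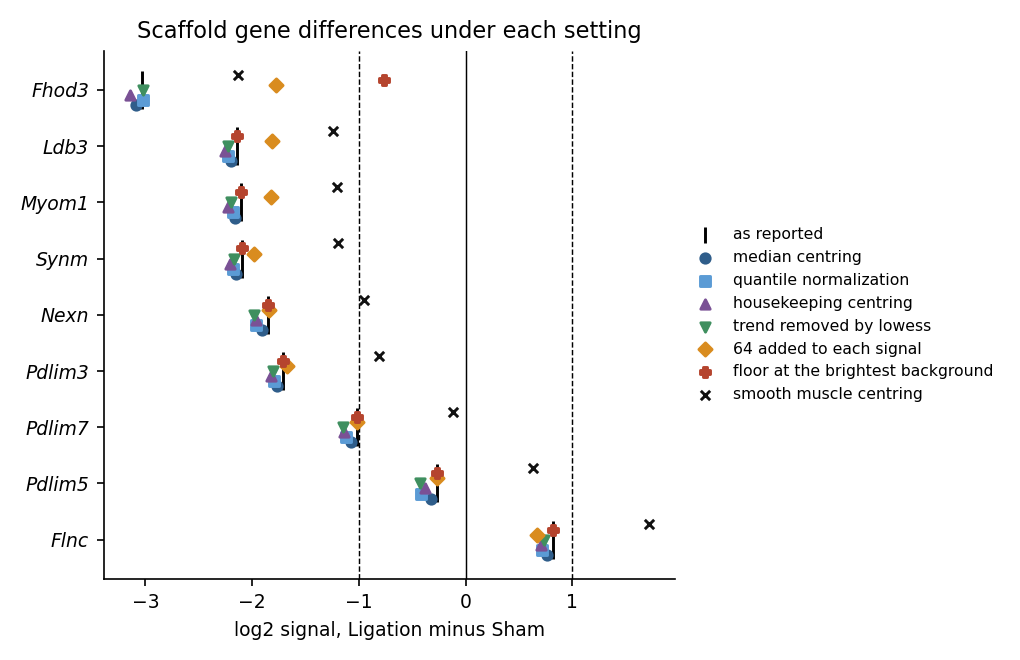
Log2 difference (Ligation minus Sham) of each scaffold gene as reported (vertical bar) and under each other setting (symbols), with dashed lines at 2-fold and 0.5-fold. Scaling of the arrays left the order of the genes nearly in place, Fhod3 moved to -0.76 with signals raised to the brightest background, and centring on smooth muscle markers moved Pdlim5 above 0.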

How the data were processed

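For each group the authors made a single pool of RNA, to which 4 rats contributed alike, ran it on a Clariom S array, and deposited a table with the linear signal intensity of each probe set. Per the labels, RMA in Affymetrix Expression Console gave this intensity, and versions and genome build are not given in the sources used here. The table held 24834 probe sets, of which 1646 were controls by name and 23188 were gene probe sets. No columns of other samples were present. The platform annotation named 15049 probe sets, each with 1 symbol, and all matched the GRCr8 gene table by Entrez identifier. A probe set without a name there is unnamed here and may still read a gene.

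Log2 was taken of the intensity, probe sets of a gene were averaged, and Sham was subtracted from Ligation with no further scaling. Thresholds of 2-fold and 0.5-fold followed the study. With 1 array per group no test was run. Precision is limited by there being 1 array per group. All 10 genes are described. Related genes are named where they passed a threshold above background, at most 3 per list by size of difference, or else the largest difference of the list. Measured paralogs of the 10 genes are named, and so are the 2 brightest markers of each list on the Sham array, Actb and Gapdh. Further genes (Actn2, Actn3, Actn4, Myot, Tcap, Csrp3, Nrap, Myoz1, Vim, Acta1, Myh11, Smtn, Myocd, Foxc1 and Pdgfra) were named after their values were seen. The members and lists were chosen with earlier results of these data known. Of the promoter elements, the CArG box was planned, and the MEF2 box, the TEAD core, the TATA box, CArG boxes that differ at 1 position and CG dinucleotides were added after. RefSeq promoter sequences of GRCr8 were used, and protein sequences were not used here. Checks on simulated data covered the plain difference, the count under 0.5-fold, removal of a trend by lowess and quantile normalization. Other steps were not checked in this way. The work was done in Python 3.11.15 with pandas 2.3.3 and numpy 2.4.6, lowess came from statsmodels 0.14.6, and plots from matplotlib 3.10.9.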

Additional observations from a re-analysis of the deposited data

How the results depend on the processing

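Each difference was recomputed with the arrays centred on their medians, quantile normalized, centred on 13 housekeeping genes, with the trend on signal removed by lowess (fraction 0.3), with 64 added to each signal, with signals raised to the brightest background, and with the brightest probe set. With no replicates, the SD of 0.36 over the housekeeping genes, 2 of which were at or near the ceiling, stood in for the spread. Of 63 such values of the 9 genes, 61 moved by less than this SD and none changed sign. The other 2 were Fhod3, at -1.77 with 64 added and -0.76 with raised signals, as its Ligation signal lay within background. Many of the 63 could not have moved past this SD. Each gene has 1 probe set, so the brightest probe set returned the same value. Centring on medians or housekeeping genes shifted all genes alike by less than this SD. Raised signals could change only Fhod3. The count is therefore no measure of how firm the differences are. Under these settings 6 or 7 genes were under 0.5-fold, and the median lay between -1.98 and -1.71. The mean in place of the median was -1.49. An alternative added after the data were seen subtracted the median difference of the smooth muscle markers, some of which may be compressed near the ceiling. It left 4 genes under 0.5-fold and a median of -0.95, and it turned Pdlim5 to 0.64. The 4 were Ldb3, Myom1, Synm and Fhod3. Fhod3 was counted there from its measured signal, and at its bound it lies above the smooth muscle median. The mean of -1.49 and the median of -0.95 use that measured value too. No paired analysis was possible because each group has 1 array. The signals near background limit what can be said of Fhod3, Ldb3 and Myom1 in the Ligation array.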
